A study of Mus musculus with 56 samples.

Results

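Cytosolic ribosomal protein genes encode the protein parts of the large and small subunits of the ribosome outside mitochondria. They were chosen by a rule on names, set with earlier results of these data known. It took mouse genes named Rpl or Rps with a number, plus Rplp0, Rplp1, Rplp2 and Rpsa. Pseudogene names and the Rps6k kinases were left out. The rule found 85 genes of the 14719 listed in 2 expression tables, all 85 among the 13451 genes of a table of sorted cells and 84 among the 12935 genes of a day 10 table. Of the 85, 46 belonged to the large subunit, 31 to the small subunit, and 8 had a name that marks a paralogue or another protein (Rpl7l1, Rpl10l, Rpl22l1, Rpl36al, Rpl39l, Rps27l, Rps27rt and Rps19bp1). Rps19bp1 encodes a protein that binds Rps19 and Rpl7l1 a factor of ribosome assembly, so the label holds for most but not all names. Fau, which encodes a ribosomal protein fused to a ubiquitin-like part, falls outside the name rule.

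A ribosome holds a single copy of nearly every such protein, and cells make them in matched amounts. Their messenger RNAs mostly start with a run of pyrimidines, the terminal oligopyrimidine tract, through which the mTOR pathway controls their translation, and Myc is known to raise transcription of many of them. Pluripotent stem cells divide fast and are known for high expression of ribosome assembly factors.

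The samples were mouse embryonic fibroblasts (MEFs) of the OG2 line, in which an Oct4 promoter drives green fluorescent protein (GFP), on their way to induced pluripotent stem cells. For the sorted cells, a doxycycline-inducible lentivirus carried Oct4, Sox2, Klf4 and c-Myc in 1 transcript, a further virus carried the doxycycline-dependent activator rtTA, and the cells also received an shRNA against Ctcf or a control shRNA (shLuci). Each shRNA gave 11 populations: unsorted day 0 cells, Thy1+, SSEA1+ and SSEA1-Thy1- (double-negative) cells at days 3, 6 and 9, and GFP+ cells at day 12. The Thy1 antigen marks fibroblasts, SSEA1 marks cells that have begun to reprogram, and GFP marks those that switched on the Oct4 reporter. There were 2 libraries per group, 44 in all. The day 10 table held unsorted cultures infected with separate retroviruses for the 4 factors plus a control vector, CTCF, or CTCF with an shRNA against Smarca5, again with 2 libraries each. The series has 56 samples. Infected cells were kept in stem cell medium with vitamin C. The 4 reprogramming factors came from viral promoters, and the populations are mixtures set by 1 or 2 surface antigens or by the reporter, and nothing in the labels ties replicates to separate cultures, so p-values measure only the spread between these samples, which may be technical.

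The deposited values are the authors' normalized tag counts, called scores here. Sorted by size, the values of 1 library are almost those of any other in its table, with totals of 31777102 to 31798964 in the sorted table and 19465402 to 19479768 in the day 10 table. A score is therefore a place in a library's ranking and the sequencing depth behind it is unknown. A higher score means higher relative to the other genes, and fewer cells of a type and less RNA per cell cannot be told apart. The targeted gene fell as labelled: Ctcf was lower with its shRNA in all 11 populations, by 0.52 on the log2 scale at day 0 and by 1.81 in GFP+ cells. Summed scores of 6 pluripotency markers rose from 8 in both day 0 control libraries to between 33376 and 33552 in GFP+ control libraries, and those of 6 fibroblast markers fell from between 96097 and 106001 to between 12783 and 13050. The marker lists thus ran with the population labels, and none of these 12 markers was at 0 in both libraries of a group named here.

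Most of the messages are short. The median length of their main transcript was 878 nucleotides, with a range of 345 to 5179, and 20 of the 85 were below 600 nucleotides. Short transcripts moved together between replicate libraries. The members' median differed between replicate 1 and replicate 2 by -0.42 to 0.50 on the log2(score + 1) scale over the 22 groups, and replicate 1 was the higher in 17. For the 20 short members that difference reached 1.05, in SSEA1+ control cells at day 3, whereas the median over all genes differed by -0.03 to 0.00. The median of 219 other genes with transcripts below 700 nucleotides differed by -0.26 to 0.40 and had the members' sign in 17 of the 22 groups. The part of this shared movement in each result below was not tested, but each count was repeated after a trend with transcript length, fitted on the other genes, had been taken out of every library.

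Sequences are printed for the paralogue pairs, because shared reads decide whether their scores can be told apart, and for promoters, because most members moved together. Rpl10l is a gene without introns at chr12:66283379-66284401 (GRCm38, minus strand) whose parent Rpl10 has 6 exons at chrX:74270812-74273135 (plus strand). Both coding sequences have 642 bases and differ at 98, of which 89 are at the last base of a codon. The first 180 bases follow, 5′ to 3′, with the 30 differing bases in capitals.
Rpl10: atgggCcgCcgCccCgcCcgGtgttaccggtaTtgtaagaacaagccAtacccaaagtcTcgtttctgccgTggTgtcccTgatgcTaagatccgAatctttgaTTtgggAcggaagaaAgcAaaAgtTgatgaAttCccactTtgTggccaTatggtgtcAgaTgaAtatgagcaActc
Rpl10l: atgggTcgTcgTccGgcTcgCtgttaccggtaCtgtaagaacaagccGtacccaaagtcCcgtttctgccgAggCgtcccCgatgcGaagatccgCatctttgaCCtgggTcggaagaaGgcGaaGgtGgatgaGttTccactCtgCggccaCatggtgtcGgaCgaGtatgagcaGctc

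Rpl39l, at chr16:10170226-10174911 (plus strand), is a paralogue of Rpl39 at chrX:37082520-37085402 (minus strand). Their whole coding sequences of 153 bases differ at the 23 capital letters, and the longest stretch they share is 38 bases.
Rpl39: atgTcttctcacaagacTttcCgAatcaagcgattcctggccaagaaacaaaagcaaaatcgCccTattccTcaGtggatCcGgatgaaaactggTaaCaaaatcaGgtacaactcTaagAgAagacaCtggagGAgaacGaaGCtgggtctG
Rpl39l: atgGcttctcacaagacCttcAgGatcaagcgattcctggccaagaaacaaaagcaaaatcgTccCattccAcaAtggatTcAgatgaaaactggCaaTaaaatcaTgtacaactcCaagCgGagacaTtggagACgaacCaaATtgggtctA

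Rps27rt, a gene without introns at chr9:114982366-114982739 (minus strand), has the same 252 coding bases as Rps27 with 0 differences. Reads from the coding part cannot be assigned to either, so the scores of both are uncertain throughout. The tables split them in opposite ways. The day 10 control libraries had 7392 and 7392 for Rps27 and 270 and 271 for Rps27rt. The first condition of the authors' deposited table of overexpression had means of 678.6 and 13501. In that condition the core genes Rpl5 and Rps12 had means of 2073 and 1368, against 39592 and 29978 in both day 10 control libraries. Rplp0 differed the other way, at 66014 against 29978 and 33000, so scores of other members also depend on the source. Rps27l differs from Rps27 at 60 of 252 bases and Rpl36al from Rpl36a at 39 of 318.

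Promoter sequences (RefSeq, GRCm38.p6, 250 bases before to 50 after the start) matched 65 of the 85 by symbol. A run of at least 8 pyrimidines (C or T) on the gene's strand within 50 bases of the start was found in 50 of the 65 (76.9%), against 35.7% of 26946 other promoters. The letters CCGGAAG, bound by ETS factors, were found on either strand of the 300 bases in 25 (38.5%), against 9.01%. CACGTG, the E-box that Myc binds, was found in 5 (7.69%) against 7.10%, AAGATGGC (YY1) in 5 (7.69%) against 2.85%, and TATAAA in 6 (9.23%) against 14.2%. CCGGAAG and AAGATGGC can overlap in the letters AAG, and a match describes the sequence only. For a member with several promoters the one nearest its annotated gene start was taken, and for other genes the one with the lowest coordinate. The other promoters also include genes outside the expression tables. The part of these choices in the shares was not tested. Windows from 60 bases before to 20 after the start are shown for Rpl4, Rplp2 and Rpl22l1, which have such a run, and for Rpl10 beside its paralogue Rpl10l, with the longest pyrimidine run of each window in capitals. They lie at chr9:64173327-64173406, chr7:141447591-141447670, chr3:28805448-28805527, chrX:74270756-74270835 (all plus strand) and chr12:66284382-66284461 (minus strand).
Rpl4: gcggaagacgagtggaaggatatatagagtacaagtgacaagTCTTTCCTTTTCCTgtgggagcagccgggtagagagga
Rplp2: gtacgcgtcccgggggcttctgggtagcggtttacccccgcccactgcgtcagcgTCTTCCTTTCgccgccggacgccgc
Rpl22l1: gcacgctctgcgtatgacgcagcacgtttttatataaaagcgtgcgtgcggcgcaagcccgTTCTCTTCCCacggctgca
Rpl10: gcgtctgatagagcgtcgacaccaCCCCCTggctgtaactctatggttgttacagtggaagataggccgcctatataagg
Rpl10l: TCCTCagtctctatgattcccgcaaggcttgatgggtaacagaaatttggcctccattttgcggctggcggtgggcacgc
The runs of Rpl4, Rplp2 and Rpl22l1 were 14, 10 and 10 bases long and lay just before the annotated start, across it and just after it. In the printed windows of Rpl10 and Rpl10l the longest runs were 6 and 5 bases. Within 50 bases of the start, the span of the count above, Rpl4 had a run of 15 bases, Rpl10 one of 10 and Rpl10l none over 5.

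As a group, the 85 genes took up more of the summed score late in reprogramming. With control shRNA, they held 1.94% and 1.96% of all scores in the day 0 libraries and 3.53% and 4.08% in the GFP+ day 12 libraries, a difference of 1.85 percentage points between the means. Thy1+ cells stayed between 1.94% and 2.18% from day 3 to day 9. SSEA1+ cells had 2.35% ± 0.432 at day 3, 2.42% ± 0.132 at day 6 and 2.81% ± 0.478 at day 9 (SD, n = 2 each), and double-negative cells 2.23% ± 0.389, 2.64% ± 0.301 and 2.55% ± 0.155. The libraries of GFP+ control cells lay above every other control library, while those of SSEA1+ and double-negative cells overlapped on days 3, 6 and 9. With Ctcf shRNA, GFP+ cells had 2.98% and 2.99%, below both control libraries. No test was run on these shares.

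**Figure D1:**
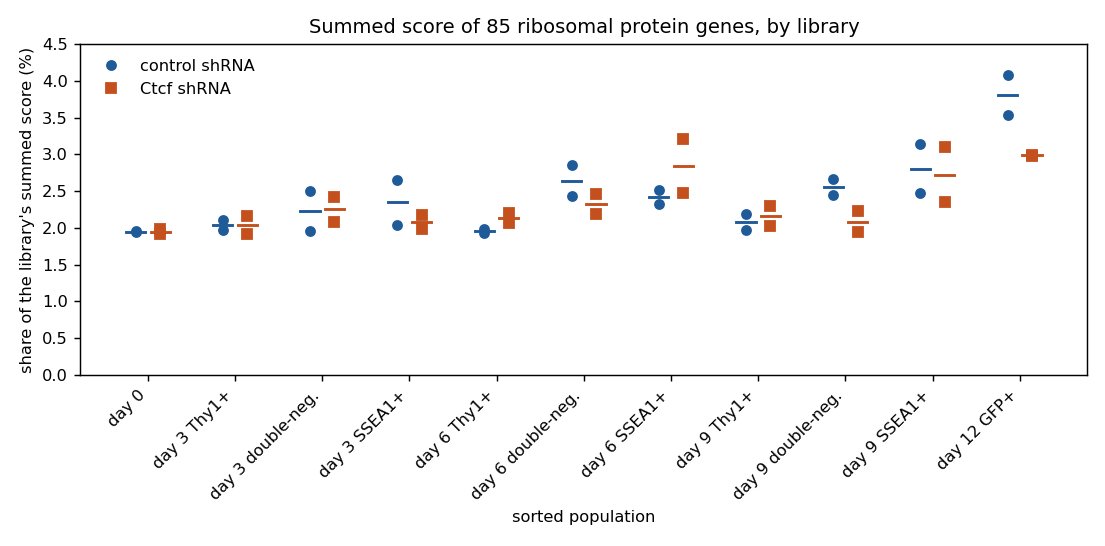
Share of each library's summed score held by the 85 genes (percent, vertical axis) in the 11 populations, with 1 point per library and a short line at the mean of the 2. Control shRNA libraries of GFP+ cells, at 3.53% and 4.08%, stand above their Ctcf shRNA counterparts at 2.98% and 2.99%.

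Members' highest mean over the 11 control populations fell in GFP+ cells for 78 of the 85, a population that held the highest mean of 22.2% of all genes. The lowest fell in day 6 Thy1+ cells for 30, in day 9 Thy1+ cells for 21 and in day 0 cells for 20, groups that held the lowest mean of 11.5%, 13.4% and 19.4% of all genes. The widest ranges of group means belonged to Rpl10l, Rpl22l1, Rpl39l, Rps19bp1 and Rpl3, all but Rpl3 being outside the core set. The narrowest were those of Rps19 (0.50 on the log2 scale), Rpl9 (0.67), Rpl24 (0.68), Rps27a (0.69) and Rps15a (0.71).

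GFP+ cells at day 12 were compared with day 0 cells under control shRNA, which spans the whole route from fibroblast to Oct4-expressing cell. Of the 85, 61 rose and 0 fell (limma, adjusted p below 0.05), against 40.1% of all genes called higher and 40.2% called lower. The members' median difference was 0.77 on the log2(score + 1) scale and that of all genes -0.01. Both subunits took part: 34 of 46 large subunit genes and 25 of 31 small subunit genes rose, with medians of 0.77 and 0.79. Libraries of the day 12 group lay entirely above those of day 0 for 81 members, as for 45.1% of all genes. With the length trend taken out, 80 of the 85 rose and the median was 0.99. Genes of other cell types moved too, as given above for the fibroblast markers, and their part in these differences was not tested.

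Rpl3 encodes a protein of the large subunit near its catalytic centre. Its scores were 7028 and 8108 at day 0 and 23744 and 19886 in GFP+ cells, a difference of 1.53 ± 0.11 (SE, adjusted p = 6.62e-13). It was also higher by day 3, at 10609 and 11559 in Thy1+ cells, so its libraries were ordered day 0, day 3, day 12 without overlap. Rpl4, another large subunit protein, went from 24265 and 22838 to 61662 and 62032 (1.39 ± 0.13, adjusted p = 2.01e-10). Rpl10a went from 4841 and 4895 to 14064 and 12231 (1.43 ± 0.15, adjusted p = 1.31e-09). Rpl36 was measured at 1600 and 1438 against 4232 and 3070, a difference of 1.25 ± 0.38 (adjusted p = 0.00441) that did not pass without GFP+ replicate 1. In all these genes both day 12 values exceeded both day 0 values by more than the libraries of a group differed.

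Rplp0, Rplp1 and Rplp2 form the stalk of the large subunit, which recruits elongation factors. Rplp0 rose from 28002 and 28626 to 48222 and 39810 (0.63 ± 0.13, adjusted p = 8.99e-05). Rplp1, at 10352 and 10864 against 18344 and 10896, and Rplp2, at 3870 and 3454 against 6738 and 4204, did not pass (adjusted p = 0.348 and 0.146). Their GFP+ libraries differed widely, replicate 1 being the higher in both. Rpsa, the laminin receptor precursor and a small subunit protein, rose from 20438 and 20297 to 33386 and 38268 (0.81 ± 0.16, adjusted p = 3.74e-05). Rps27, another small subunit gene, rose from 908 and 823 to 2458 and 1644 (1.22 ± 0.50, adjusted p = 0.0290), a score it shares in part with Rps27rt, and did not pass without day 0 replicate 1 or 2 or GFP+ replicate 1. Rps4x, an X-linked small subunit gene, rose from 17566 and 17582 to 39308 and 36189 (1.10 ± 0.16, adjusted p = 5.42e-07).

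Of the 8 paralogue and other names 2 rose, Rpl10l and Rpl22l1. Rpl10l, a gene known mainly from the male germ line, was listed at 0 in both day 0 libraries and at 607 and 572 in GFP+ control cells (adjusted p = 1.35e-12). In the other control populations it stood at 0 to 1 until day 6, at 1 and 1 in day 9 Thy1+ cells, at 4 and 2 in double-negative cells and at 6 and 5 in SSEA1+ cells. Its parent Rpl10 went from 12454 and 12845 at day 0 to 21577 and 19722 in GFP+ cells, a difference of 0.71 ± 0.13 (adjusted p = 2.62e-05). Rpl10l was thus near 0 in every control population but the last, while Rpl10 was well above 0 in all.

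Rpl22l1, a paralogue of Rpl22, stood at 869 and 980 at day 0, at 2501 and 2051 in Thy1+ cells and 6251 and 2732 in SSEA1+ cells of day 3, and at 2880 and 1744 in GFP+ cells. It was above day 0 by 1.29 ± 0.47 in day 3 Thy1+ cells (adjusted p = 0.0293), by 2.16 ± 0.47 in day 3 SSEA1+ cells (adjusted p = 0.000211) and by 1.28 ± 0.47 in GFP+ cells (adjusted p = 0.0157). Rpl22 itself was at 2309 and 2491 at day 0, at 3338 and 2088 in day 3 SSEA1+ cells and at 5516 and 4741 in GFP+ cells, a rise of 1.09 ± 0.21 from day 0 (adjusted p = 4.69e-05). The highest mean of Rpl22l1, in day 3 SSEA1+ cells, rested on replicate 1, since replicate 2 at 2732 lay inside the range of the GFP+ libraries. That group had the widest replicate difference of short transcripts, and Rpl22l1 has 552 nucleotides. No test compared the order of populations between the paralogues. The call in day 3 Thy1+ cells was lost without any 1 of its 4 libraries and that in GFP+ cells without day 0 replicate 1 or GFP+ replicate 1, while that in day 3 SSEA1+ cells passed without each of its 4.

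Rpl39l, also known from the germ line, had 122 and 110 at day 0, 90 and 30 in day 9 SSEA1+ cells and 224 and 147 in GFP+ cells. The difference from day 0 was 0.64 ± 0.44 (adjusted p = 0.184), while that from day 9 SSEA1+ cells passed at 1.78 ± 0.44 (adjusted p = 0.00120), though not without SSEA1+ replicate 2. Rpl39 itself was at 1096 and 1176 against 2120 and 1318 (0.56 ± 0.59, adjusted p = 0.387), and Rpl36al at 1312 and 1320 against 1974 and 1588 (0.43 ± 0.23, adjusted p = 0.0939). Neither passed, and their day 12 libraries differed widely. Rps27l, a p53 target gene, stood at 6219 and 7000 against 6132 and 5232 (-0.22 ± 0.27, adjusted p = 0.463). Rps19bp1, at 456 and 484 against 422 and 390 (-0.21 ± 0.17, adjusted p = 0.268), and Rpl7l1, at 2463 and 2596 against 2583 and 2682 (0.06 ± 0.09, adjusted p = 0.571), did not pass either. The last 3 were the lowest 3 of the 85 differences between day 12 and day 0.

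**Figure D2:**
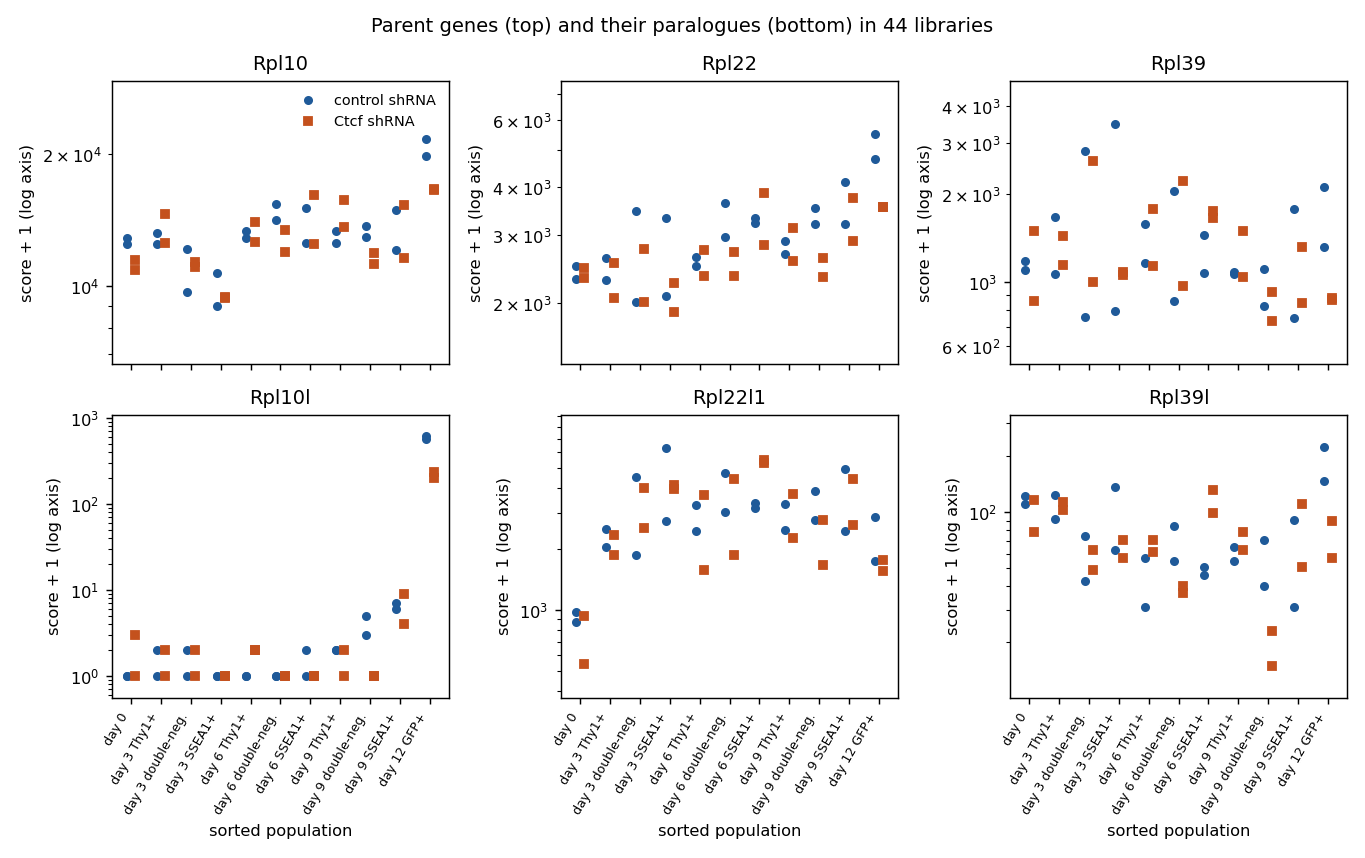
Score + 1 (log axis) of Rpl10, Rpl22 and Rpl39 in the upper panels and of their paralogues Rpl10l, Rpl22l1 and Rpl39l in the lower ones, with 1 point per library in 11 populations and 2 shRNAs. Rpl10l is at 8 or below in all libraries but those of GFP+ cells, where control libraries are at 607 and 572 and Ctcf shRNA libraries at 233 and 198.

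Other genes of protein synthesis were read from lists fixed by name. The shares of all genes called between day 0 and GFP+ day 12 are those given above for the members. Of 29 ribosome biogenesis genes, 21 rose and 1 fell between day 0 and GFP+ day 12, with a median of 0.67. Rrp1b (2.30 ± 0.10) and Dkc1, the pseudouridine synthase of ribosomal RNA (1.84 ± 0.09), rose most, and Nop2 fell by 0.21 ± 0.07. Among 9 RNA polymerase I genes 8 rose, led by Polr1b, its second largest subunit (1.72 ± 0.08). Of 18 translation factors and related genes 13 rose and 1, Npm1, fell. Of 78 mitochondrial ribosomal protein genes 29 were higher and 13 lower, with a median of 0.07. Mrps5 rose by 1.42 ± 0.14 and Mrps6 fell by 1.36 ± 0.11 on the log2 scale. The lists thus had unlike counts, and the difference between lists was not tested.

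The sorted fractions of 1 day show how far members differed between SSEA1+ and Thy1+ cells. At day 3, 12 members were higher and 1 lower in SSEA1+ than in Thy1+ cells (35.4% and 28.8% of all genes), with a median of 0.19 against 0.09 for all genes. At day 6, 19 were higher and 0 lower (42.4% and 33.8% of all genes), with a median of 0.24 against 0.15. At day 9, 29 were higher and 0 lower (38.8% and 30.0%), with a median of 0.40 against 0.13. The 29 included Rpl10l, whose scores were near 0 in both fractions. On each day the share of members called was below that of all genes called. Marker genes differed between the same fractions. Summed fibroblast markers were at 18227 to 19045 in SSEA1+ and 90341 to 99753 in Thy1+ cells at day 3, at 5714 to 5737 and 169499 to 182969 at day 6, and at 32996 to 33990 and 219673 to 231266 at day 9. Summed markers of the cell cycle, from 4 genes, were at 25439 to 28154 in SSEA1+ and 11202 to 11729 in Thy1+ cells at day 9, and their part in the members' differences was not tested. At day 9 the difference was above 0 for 84 of the 85. The members' difference between SSEA1+ and Thy1+ cells was larger at day 6 than at day 3 for 2 of the 85, Rpl8 and Rpl7l1, as for 21.0% of all genes, with 19.0% in the other direction. Between days 9 and 6 it differed for 0 members by limma, with 0 at an unadjusted p below 0.05, and for 16.7% and 13.1% of all genes in either direction.

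Those called higher in SSEA1+ than in Thy1+ cells on each of the 3 days were 6 members, Rpl3, Rpl7a, Rpl7l1, Rplp0, Rps15 and Rps19bp1, as were 26.6% of all genes. Rpl8, a large subunit protein, stood at 10767 and 8636 in Thy1+ and at 16384 and 13982 in SSEA1+ cells at day 9, a difference of 0.65 ± 0.10 (adjusted p = 2.06e-06). Rplp0 stood at 23329 and 22939 against 39577 and 31810 on that day (0.62 ± 0.13, adjusted p = 0.000166). Rps19bp1 was at 226 and 238 against 415 and 386 (0.78 ± 0.17, adjusted p = 0.000292). At day 3 Rpl10 was the single member lower in SSEA1+ cells, at 10710 and 8988 against 12418 and 13160 (-0.38 ± 0.13, adjusted p = 0.0142), a call lost without replicate 2 of either fraction. Libraries of both fractions stood apart for each of these genes.

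Double-negative cells showed 0 called members against Thy1+ cells at day 3 by limma (4 at an unadjusted p below 0.05), when 13.9% of all genes were higher and 14.4% lower. At day 6, 29 were higher and 0 lower (35.0% and 29.3% of all genes), with a median of 0.39 against 0.07. At day 9, 11 were higher and 0 lower (30.1% and 24.4%), with a median of 0.27 against 0.07. Rpl8 was at 10652 and 9626 in Thy1+ and at 17538 and 15742 in double-negative cells of day 6 (0.71 ± 0.10, adjusted p = 5.59e-07). Rplp0 was at 26204 and 23744 against 44035 and 38854 (0.73 ± 0.13, adjusted p = 2.34e-05). Both comparisons of a day share their Thy1+ libraries. Summed fibroblast markers of double-negative cells were at 59914 to 63221, 39728 to 43546 and 83460 to 86077 on days 3, 6 and 9, below those of Thy1+ cells, and summed cell cycle markers at 14469 to 15672, 22217 to 22439 and 19378 to 20503. Their part in these differences was not tested.

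Single libraries weighed on these counts. Leaving out replicate 1 of SSEA1+ cells gave 3 called at day 3, 9 at day 6 and 7 at day 9, and leaving out their replicate 2 gave 21 at day 3 and 51 at day 9. Without Thy1+ replicate 1 there were 6 at day 3 and 11 at day 6, and without Thy1+ replicate 2 there were 12 at day 6 and 11 at day 9. For double-negative cells, day 6 gave 11 without their replicate 1 and 17 without Thy1+ replicate 2. At day 9 it gave 6 and 7 without their replicates 1 and 2, and 7 without Thy1+ replicate 2. With the length trend taken out, SSEA1+ cells at day 6 had 13 members higher and 4 lower with a median of 0.03, so the direction at day 6 was not uniform after that step. At day 9 they had 28 higher and 0 lower with a median of 0.26.

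The first days and the last step were also compared. From day 0 to day 3, 3 members rose and 1 fell in Thy1+ cells (22.3% and 20.1% of all genes) and 16 rose and 1 fell in SSEA1+ cells (39.7% and 32.5%). Rpl3, Rpl10a and Rpl22l1 rose in both. Rpl7l1 fell by 0.35 ± 0.09 in Thy1+ cells (adjusted p = 0.00356). From SSEA1+ cells of day 9 to GFP+ cells of day 12, 25 rose and 0 fell (25.5% and 33.6% of all genes), with a median of 0.39 against -0.06 for all genes. Rps4x rose from 23914 and 19142 to 39308 and 36189 in this step (0.82 ± 0.16, adjusted p = 8.87e-05), and Rpl10 from 14861 and 12070 (0.62 ± 0.13, adjusted p = 0.000245). The count was 15 without GFP+ replicate 1, 44 without SSEA1+ replicate 1 and 11 without SSEA1+ replicate 2, and 54 with the length trend taken out. The day 3 SSEA1+ count of 17 was 11 without day 0 replicate 1 or 2, 7 without SSEA1+ replicate 1 and 35 without its replicate 2. The day 3 Thy1+ count of 4 was 2 without day 0 replicate 1 or 2 and 2 without Thy1+ replicate 2.

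**Figure D3:**
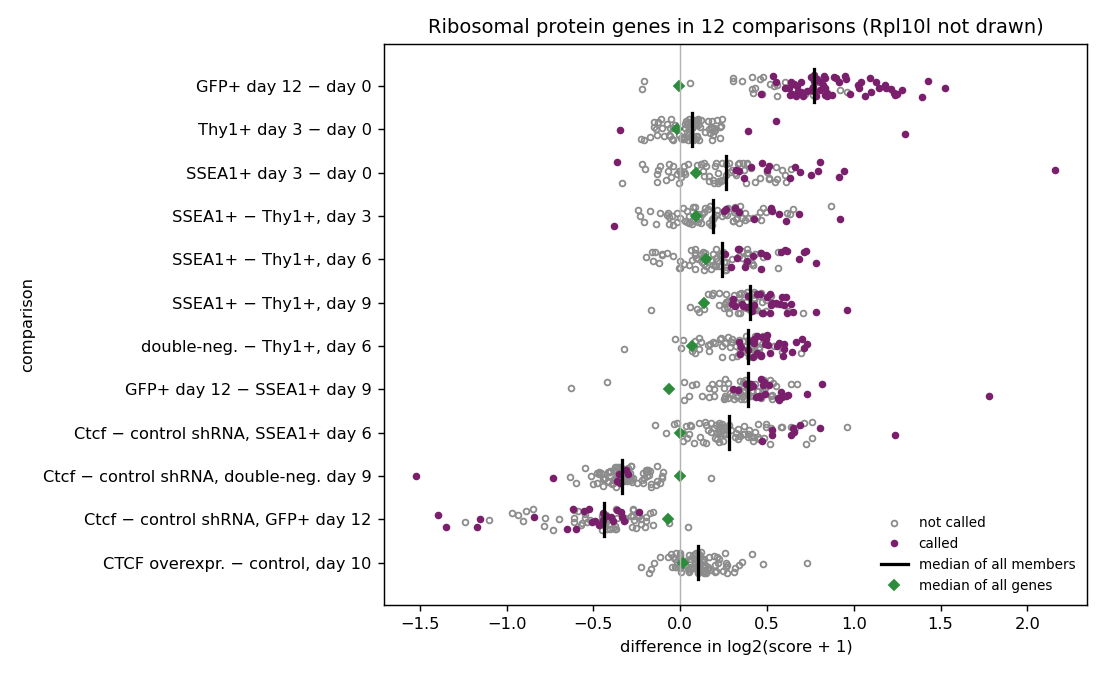
Difference in log2(score + 1) for each member in 12 comparisons, 84 genes per row without Rpl10l (horizontal axis), with filled points for called members, a bar at the members' median and a diamond at the median of all genes. The members' median is 0.77 in the first row and -0.44 for Ctcf shRNA in GFP+ cells, against -0.01 and -0.07 for all genes.

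The effect of Ctcf shRNA was read in each population against control shRNA. Ctcf encodes the zinc finger protein that marks chromatin loop anchors. No member was called at day 0, in any of the 3 fractions at day 3, in Thy1+ cells at days 6 and 9 or in SSEA1+ cells at day 9 (limma; 0 to 3 members at an unadjusted p below 0.05 in each). Of all genes, 2.93% were called higher and 3.75% lower at day 0. At day 3 it was 1.46% and 2.56% in Thy1+, 3.56% and 3.22% in SSEA1+ and 2.34% and 2.54% in double-negative cells. Day 6 Thy1+ cells had 6.83% and 7.56%, day 9 Thy1+ cells 7.51% and 12.1%, and day 9 SSEA1+ cells 4.80% and 9.04%. The members' medians in these comparisons lay between -0.19 in day 3 SSEA1+ cells and 0.16 in day 6 Thy1+ cells. With the length trend taken out the latter was -0.04. At day 0 the count was 8 without Ctcf shRNA replicate 1, and at day 3 in SSEA1+ cells 1 without control replicate 2.

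In GFP+ cells of day 12, 24 of the 85 were lower and 0 higher with Ctcf shRNA, against 24.7% and 24.6% of all genes. The members' median was -0.44 and that of all genes -0.07. The difference was below 0 for 84 of the 85, and for 82 both Ctcf shRNA libraries lay below both control libraries, as for 45.2% of all genes. By class, 13 of 46 large subunit genes, 6 of 31 small subunit genes and 5 of the 8 other names were lower. Both Ctcf shRNA libraries of GFP+ cells were close to each other, with members' medians differing by 0.02, and the control libraries differed by 0.28.

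Rpl8 went from 26072 and 24265 with control shRNA to 17696 and 18078 with Ctcf shRNA in GFP+ cells (-0.49 ± 0.10, adjusted p = 0.000207). Rpl7l1 went from 2583 and 2682 to 1946 and 1972 (-0.43 ± 0.09, adjusted p = 0.000473), and Rpl7 from 29775 and 29050 to 22352 and 22652 (-0.39 ± 0.11, adjusted p = 0.00400). Rpl3 went from 23744 and 19886 to 17266 and 17062 (-0.34 ± 0.11, adjusted p = 0.0115), a call lost without Ctcf shRNA replicate 2 or control replicate 1. These 4 have long transcripts among the members and small standard errors. The 6 called members with the largest differences were Rps27rt, Rpl39l, Rpl38, Rpl37, Rpl36a and Rpl27. Rps27rt had a low mean of 74 with control shRNA, and its score is uncertain as given above. Rpl39l went from 224 and 147 to 56 and 89 (-1.35 ± 0.44, adjusted p = 0.0138) and Rpl38 from 1336 and 884 to 479 and 486 (-1.17 ± 0.46, adjusted p = 0.0381). Rpl36a went from 7566 and 6308 to 3911 and 3802 (-0.84 ± 0.30, adjusted p = 0.0219). The calls of Rpl39l, Rpl38 and Rpl36a were lost without Ctcf shRNA replicate 1 or control replicate 1, and those of Rpl38 and Rpl36a also without Ctcf shRNA replicate 2.

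Rpl10l stood at 233 and 198 with Ctcf shRNA against 607 and 572, groups that did not overlap, with an adjusted p of 0.0773 (-1.45 ± 0.68). Its standard error pools all sorted groups, and Rpl10l was near 0 in all but those of GFP+ cells. It therefore does not measure the spread of these libraries alone. Rpl10, at 16589 and 16564 against 21577 and 19722, also missed the threshold (-0.32 ± 0.13, adjusted p = 0.0511). Rpsa was the single member with a difference above 0, at 37437 and 36189 against 33386 and 38268, and its groups overlapped. Rplp0 (-0.20 ± 0.13, adjusted p = 0.216), Rplp1 (-0.85 ± 0.40, adjusted p = 0.0845) and Rplp2 (-0.79 ± 0.34, adjusted p = 0.0577) did not pass.

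Transcript length ran with the size of this difference. The median was -0.76 for the 20 members below 600 nucleotides and -0.39 for the 65 longer ones. It was -0.50 for the 219 other genes below 700 nucleotides and -0.06 for all other genes. Across the 85 members, which share the same libraries, Spearman's rho between length and difference was 0.45. For GFP+ day 12 against day 0 the same values were 0.79, 0.77, -0.20 and -0.02, with a rho of 0.01. With the length trend taken out, 9 members were called in GFP+ cells with Ctcf shRNA, all lower, and the median over the 85 was -0.22. Leaving out Ctcf shRNA replicate 1 or 2 or control replicate 1 gave 4, 5 and 3 members lower. The summed fibroblast markers were at 39941 and 40772 with Ctcf shRNA against 12783 to 13050 with control, and the summed pluripotency markers at 18529 to 18729 against 33376 to 33552, so the GFP+ populations also differed in these markers. Their part in the members' differences was not tested.

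**Figure D4:**
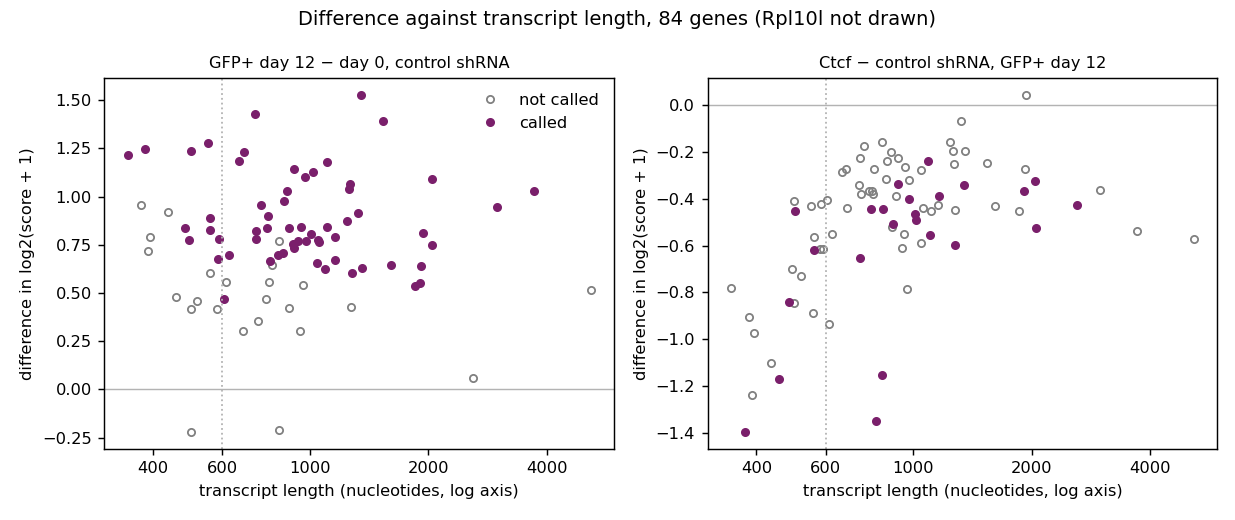
Difference in log2(score + 1) against transcript length (nucleotides, log axis) for 84 genes without Rpl10l, with filled points for called members and a dotted line at 600 nucleotides. From day 0 to GFP+ day 12 short and long members have medians of 0.79 and 0.77, and under Ctcf shRNA in GFP+ cells -0.76 and -0.39.

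Genes of ribosome assembly were lower with Ctcf shRNA in GFP+ cells as well, and the shares of all genes called there are given above. Of the 29 biogenesis genes 24 fell and 0 rose, with a median of -0.38, led by Gar1 (-0.98 ± 0.27) and Nop10 (-0.90 ± 0.33), both part of the pseudouridylation complex. Of 9 RNA polymerase I genes 7 fell, and of 78 mitochondrial ribosomal protein genes 32 fell and 1, Mrps6, rose. Of 18 translation factors and related genes 4 fell, among them Rack1, a protein of the small subunit surface (-0.41 ± 0.09). Of 14 mTOR genes 1 fell, Eif4ebp1. Of 4 cell cycle markers 3 fell. Counts of these lists with the length trend taken out or without single libraries are not given here.

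Outside GFP+ cells the sign varied, and with all libraries kept no share of members called exceeded that of all genes in the same direction. In SSEA1+ cells of day 6, 9 members were called with Ctcf shRNA, all higher (11.2% of all genes were higher), with a median of 0.28 against 0.00. Rpl28 was at 3434 and 3494 with control and 5174 and 6036 with Ctcf shRNA (0.69 ± 0.20, adjusted p = 0.0129), and Rpl29 at 4472 and 4504 against 6062 and 8158 (0.65 ± 0.18, adjusted p = 0.0122). The count was 15 without Ctcf shRNA replicate 1, 0 without its replicate 2, and 1 and 2 without control replicates 1 and 2. Short other genes had a median of 0.28 there. Summed fibroblast markers were at 5714 to 5737 with control and 7580 to 8309 with Ctcf shRNA, and summed pluripotency markers at 2318 to 2465 and 1237 to 1316. In double-negative cells of day 6, Rps27rt was higher and Rpl3, Rpl5, Rpl7 and Rpl8 were lower (20.2% and 21.9% of all genes). Rps27rt had a low control mean of 25.5 there, and its score is uncertain as given above. Summed fibroblast markers there were at 39728 to 43546 with control and 84666 to 85541 with Ctcf shRNA, and summed pluripotency markers at 311 to 315 and 76 to 92. This count of 5 was 0 without Ctcf shRNA replicate 2, 2 without control replicate 1 and 12 with the length trend taken out. In double-negative cells of day 9, 8 were lower and 0 higher (13.4% and 14.6%), with a median of -0.34 against 0.00 and -0.30 for short other genes. The 8 included Rpl10l (-1.95 ± 0.68), whose scores there were near 0 with either shRNA. Summed fibroblast markers there were at 83460 to 86077 with control and 108887 to 109777 with Ctcf shRNA, and summed pluripotency markers at 1903 to 1999 and 1013 to 1110. The part of these markers in the 3 results was not tested. The number of members lower was 4 and 1 without Ctcf shRNA replicates 1 and 2, 2 and 1 without control replicates 1 and 2, and 4 with the length trend taken out.

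Averaged over the 11 populations, 5 members were lower with Ctcf shRNA and 0 higher (25.8% and 26.2% of all genes). They were Rpl22 (-0.19 ± 0.06, adjusted p = 0.0162), Rpl5, Rpl8, Rpl3 and Rpl7, the last 4 with differences of -0.10 to -0.08. Their number was 3 without day 0 control replicate 2, GFP+ control replicate 1, day 6 SSEA1+ Ctcf shRNA replicate 1 or day 9 SSEA1+ Ctcf shRNA replicate 2. It was 8 without day 3 SSEA1+ control replicate 2, day 3 double-negative control replicate 2, day 9 SSEA1+ control replicate 2 or day 6 double-negative Ctcf shRNA replicate 1. It was 9 without day 6 SSEA1+ Ctcf shRNA replicate 2 or day 9 SSEA1+ Ctcf shRNA replicate 1. The effect of the shRNA differed between GFP+ cells and day 0 for 9 members, all lower in GFP+ cells (18.0% of all genes, and 21.2% in the other direction). It differed between SSEA1+ and Thy1+ cells for 0 members on days 3, 6 and 9 by limma, with 0, 1 and 0 at an unadjusted p below 0.05. Of all genes, 0.164% and 0.0372% were called higher and lower on day 3, 3.21% and 2.47% on day 6, and 10.3% and 9.43% on day 9. Without day 6 SSEA1+ Ctcf shRNA replicate 1 the day 6 count was 2.

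At day 10, CTCF overexpression and the added Smarca5 shRNA were compared in unsorted cultures. Smarca5 encodes the motor of ISWI chromatin remodellers. The control libraries agreed so closely, with a median absolute difference of 0.03 on the log2 scale against 0.06 to 0.22 in the other 24 replicate pairs, that they were averaged and counted as 1 sample. No member was called with CTCF against control, with Smarca5 shRNA added to CTCF, or with both against control (limma; 1, 2 and 2 members at an unadjusted p below 0.05). All genes were called at 0.0618% higher and 0% lower, 0.0387% and 0.0387%, and 0.0696% and 0.0309%. With 2 residual degrees of freedom the overexpressed gene itself, Ctcf, did not pass (2.16 ± 0.25, adjusted p = 0.217), so calls at this size were rare for any gene.

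The members' medians were 0.10 for CTCF, 0.00 for the added shRNA and 0.08 for both against control, and those of all genes lay within 0.02 of 0. By library, the members' median against the control mean was 0.17 and 0.00 with CTCF and 0.00 and 0.16 with CTCF and Smarca5 shRNA. Replicates of a treatment thus differed as much as treatments. Scores in this table stand in steps shared by several genes, so that Rpl4 and Rps2 had 39592 in all 6 libraries and 34 of the 84 members had 3 or fewer distinct scores. Rpl7 had 33000 in both control libraries, 75720 and 39594 with CTCF, and 39594 and 75720 with both treatments. Rpl3 had 19338 in both controls, 25726 in both CTCF libraries, and 20810 and 22821 with both treatments (CTCF against control 0.41 ± 0.09, adjusted p = 0.608). Rpl39l stood at 247 and 250 in controls, 297 and 277 with CTCF, and 268 and 310 with both.

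**Figure D5:**
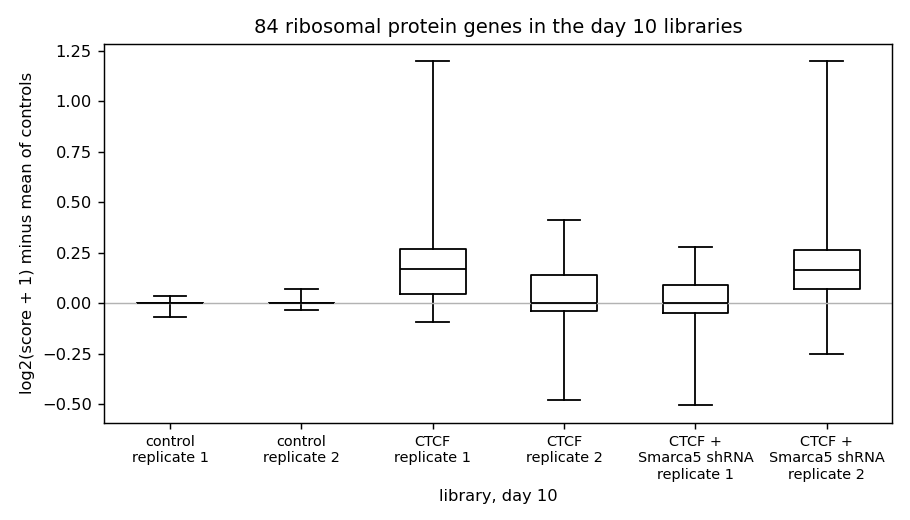
Log2(score + 1) of 84 members minus the mean of the control libraries (vertical axis) in the 6 day 10 libraries, as boxes from the lower to the upper quartile with a line at the median and whiskers to the lowest and highest member. Medians are 0.17 and 0.00 with CTCF and 0.00 and 0.16 with CTCF and Smarca5 shRNA.

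The authors' own day 10 comparisons give 2 condition means, a log2 ratio and a p-value per gene, with no column names, so directions are given relative to Ctcf. In the authors' deposited table of overexpression, 6 of the 85 were higher and 0 lower in the condition with more Ctcf at p below 0.05, against 0.790% and 1.56% of all genes above its floor. Rpl10 had the largest ratio of these in the authors' deposited table, 0.62, whereas its day 10 score was 29975 in both control and both CTCF libraries. In the authors' deposited table of the Ctcf shRNA, 32 were higher and 20 lower in the condition with less Ctcf, against 6.03% and 5.71%, with a median log2 ratio of 0.02. Ctcf itself had a ratio of -0.34 there. Members with ratios of 0.06 (Rpl23a) and -0.06 (Rps4x) were among those below 0.05. The part of score level in these counts was not tested. Rps12, whose scores differed between sources as given above, had a ratio of -0.64 there and Rps28 one of 0.31. Rpl10l had a ratio of 1.93 in the condition with more Ctcf (p = 0.0588) and of -1.27 in that with less (p = 0.0930) in the authors' deposited tables, neither below 0.05.

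A table of raw counts for starting MEFs and finished iPSCs, 1 library each with 16593659 and 9912018 counts, listed 22 of the 85. They are the members with a single-digit number in their name plus Rplp0, Rplp1, Rplp2 and Rpsa. Members with higher numbers are missing from it, so the 22 do not stand for the 85. These 22 took 1.55% of counts in MEFs (95% Wilson interval 1.54% to 1.55%) and 1.65% in iPSCs (1.64% to 1.66%), intervals that cover counting error only. Relative to each library's total, 15 were higher in iPSCs and 7 lower. The log2 ratio was -0.57 for Rpl7, -0.47 for Rpsa and 0.81 for Rplp2, and the median of the 22 was 0.18 against 0.03 for all genes. With 1 library each there is no replicate check and no test was made.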

How the data were processed

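RNA was extracted with TRIzol and libraries were made with a NEBNext Ultra kit, per the labels' protocols. FastQC, Trim Galore and RSEM are named in the submitters' processing notes, without versions. The main tables hold scores, which the authors describe as normalized tag counts and deposited as whole numbers; nearly identical sorted values in all libraries of a table mean that a score reflects rank, so depth is unknown and changes are relative to other genes. The MEF and iPSC table holds raw counts as deposited by the authors. The authors' deposited comparison tables hold mean scores, a log2 ratio and a p-value per gene, whose method and adjustment are not given in the sources used here.

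The test took genes that reached a score of 10 in 2 or more libraries and ran on log2(score + 1) with limma 3.58.1 in R 4.3.3, with a mean-variance trend, all 44 sorted libraries in 1 fit, and Benjamini-Hochberg adjustment over all mouse genes; called means an adjusted p below 0.05. The filter and the test leave repeat types out. At day 10 both control columns were averaged as 1 sample, which left 2 residual degrees of freedom. No column of values was left unused (0), and 4 day 10 shRNA samples without a column of their own were not analysed here. The procedure was tested on simulated data in which genes varied independently, so the shared movement of short transcripts was not covered.

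The members, pathway lists and markers were chosen with earlier results of these data known. Named genes are the stalk genes, Rpsa, the paralogues and their parents, up to 6 called members per direction with the largest difference and no overlap between libraries, the 5 widest and 5 narrowest ranges, and up to 2 genes per direction of each list; others that the text names (Rpl8, Rpl7l1 and Rpl3 under Ctcf shRNA, and values set beside a named gene) were chosen after their values were seen. Alternatives were another pseudocount, filter, centring, quantile normalization, no trend, the replicate number as a block, each replicate left out, and, chosen after seeing the data, removal of the trend with transcript length. Gene positions and coding sequences are from GENCODE on GRCm38 and promoters from RefSeq. Some items are not reported here.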

Additional observations from a re-analysis of the deposited data

Results flagged for a closer look

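The effect of Ctcf shRNA differed between GFP+ cells of day 12 and day 0 cells by an interaction term (limma, adjusted p below 0.05) for 9 members, each lower in GFP+ cells. That was a smaller share of the members than of all genes called lower, given above. The difference of differences on the log2 scale was -1.62 ± 0.65 for Rps27rt (adjusted p = 0.0489), whose coding sequence equals that of Rps27, and -1.15 ± 0.42 for Rpl36a (adjusted p = 0.0322). It was -0.84 ± 0.34 for Rps26, -0.81 ± 0.25 for Rps19bp1 and -0.66 ± 0.24 for Rps10. Control means of Rps27rt were low, at 38 at day 0 and 74 in GFP+ cells. Rpl8, with -0.53 ± 0.14, had the lowest adjusted p, 0.00402. Rpl7a had -0.41 ± 0.16, Rps2 -0.41 ± 0.14 and Rpl7l1 -0.38 ± 0.13. The count of 9 fell to 3 with the length trend taken out. It was 5 and 4 without day 0 control replicates 1 and 2, 3 without day 0 Ctcf shRNA replicate 2, 3 without GFP+ control replicate 1, and 2 and 3 without GFP+ Ctcf shRNA replicates 1 and 2.

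The difference between SSEA1+ and Thy1+ cells under control shRNA was larger at day 6 than at day 3 for 2 members, by 0.44 ± 0.14 for Rpl8 (adjusted p = 0.0130) and by 0.35 ± 0.13 for Rpl7l1 (adjusted p = 0.0370). This too was a smaller share of the members than of all genes, given above. Leaving out single libraries gave 0 members without day 6 Thy1+ replicate 2 and 1 without day 6 Thy1+ replicate 1, day 6 SSEA1+ replicate 1 or day 3 Thy1+ replicate 2. Without day 3 SSEA1+ replicate 1 there were 4. No explanation of either pattern was tested.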

How the results depend on the processing

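Among 129 results on single members none changed sign under an alternative run, and at day 10 every alternative gave 0 members called. The members' median turned from 0.16 to -0.04 for Ctcf shRNA in day 6 Thy1+ cells with the length trend taken out, and SSEA1+ against Thy1+ cells at day 6 then had 13 members higher and 4 lower. For these single members, alternatives other than leaving out a replicate left 975 values on the same side of the threshold and took 46 out of it. Leaving out a replicate, which is not in these totals, took further results out, many of them in comparisons with GFP+ cells. Another pseudocount, filter, centring or no trend kept every count of members called within 1.5 times, and quantile normalization did so except for double-negative against Thy1+ cells at day 3, which went from 0 to 2. With the length trend taken out, counts changed from 25 to 54 for GFP+ against day 9 SSEA1+ cells, from 17 to 27 for day 3 SSEA1+ against day 0 cells, and from 0 to 7 and from 11 to 17 for double-negative against Thy1+ cells at days 3 and 9. Under Ctcf shRNA they changed from 24 to 9 in GFP+ cells, from 0 to 3 at day 0, from 0 to 2 and from 0 to 1 in Thy1+ cells of days 6 and 9, from 5 to 12 and from 8 to 4 in double-negative cells of days 6 and 9, and from 5 to 16 over all populations. Interactions changed from 9 to 3 (Ctcf shRNA, GFP+ against day 0), from 0 to 1 (Ctcf shRNA, SSEA1+ against Thy1+, day 6), and from 2 to 7 and from 0 to 4 (SSEA1+ against Thy1+, day 6 against 3 and day 9 against 6).

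Over all genes, correlations of same-numbered libraries' deviations were -0.103 to 0.131 over 231 pairs of groups, and the numbers were not taken as pairs, although the members' median was higher in replicate 1 in 17 of 22 groups. With the replicate block, counts changed from 24 to 46 for Ctcf shRNA in GFP+ cells, from 5 to 9 over all populations, from 0 to 1 for double-negative against Thy1+ cells at day 3, and from 2 to 4 and from 0 to 1 for the last 2 interactions.

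Leaving out 1 replicate at a time, which leaves 1 library whose spread is taken from the other groups, gave 41 to 64 for GFP+ against day 0, 11 to 44 for GFP+ against day 9 SSEA1+, 7 to 35 for day 3 SSEA1+ and 2 to 3 for day 3 Thy1+ against day 0 cells. SSEA1+ against Thy1+ gave 3 to 21, 9 to 15 and 7 to 51 on days 3, 6 and 9, and double-negative against Thy1+ 11 to 30 and 6 to 10 on days 6 and 9. Ctcf shRNA gave 3 to 25 in GFP+ cells, 0 to 8 at day 0, 0 to 1 and 0 to 15 in SSEA1+ cells of days 3 and 6, 0 to 4 and 1 to 4 in double-negative cells of days 6 and 9, and 3 to 9 over all populations. Interactions gave 2 to 13, 0 to 2, 0 to 4 and 0 to 1 in the order above. The cause of these changes was not tested. With 2 libraries per group and unknown depth, small differences of short members were not resolved.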
